A study of Mus musculus with 8 samples.

Results

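The tables listed 22 histone genes among 10690 genes, chosen by symbol as those that begin with Hist1h to Hist4h, H2af, H3f3 or H1f. Of these, 12 carried a Hist name, the naming of the replication-dependent gene clusters, and 10 were replacement histone genes or, in the case of H3f3a-ps1, a pseudogene by its symbol. The RNA came from NIH3T3 cells, an immortalised mouse embryonic fibroblast line that the labels give as proliferating, and was sequenced near the 3′ end of polyadenylated transcripts (QuantSeq FWD, which primes on poly(A)). There were 4 conditions with 1 library each, namely nontreated cells (NT), cells kept for 1 h in 250 μM sodium arsenite (AS), and cells given the same arsenite and then returned to regular medium, for 4 h in RC4 and for 8 h in RC8. All 4 share the cell line and the use of total RNA, and the labels name no genetic change. Each treated library was deposited in a table together with NT, and a gene was listed only where it had at least 50 reads.

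Most animal histone mRNAs of the replication-dependent class are made in S phase and end just after a conserved stem-loop, which is bound by the stem-loop binding protein SLBP, and they carry no poly(A) tail. Replacement histones are made through the cell cycle from ordinary genes, usually with introns and poly(A) signals, and are placed into chromatin without DNA replication. H2afx is known for making both kinds of mRNA, and several replication-dependent genes can also give longer, polyadenylated transcripts from a poly(A) site (PAS) downstream of the stem-loop.

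The 16-nt stem-loop was searched as the stem arm GGCNCT, the loop TNTN and the stem arm AGNGCC on the strand of the gene in the 150 nt after the last coding base (mm9 sequence, GENCODE vM1 coding ends). It was found in 10 of the 12 Hist-named genes, and an eleventh, Hist1h2an, had a sequence that departs from the motif at 1 letter. Hist1h2al had none. Among 8 replacement genes with an annotated coding end, H2afx alone had it, and of 8886 other listed genes none had the motif, while 6 (0.0675%) had a sequence with at most 1 letter off. The stem-loops below are shown because the reads of the first 5 genes were placed at or next to them, and because H2afx is the replacement gene that carries one. Capitals mark the stem-loop, each line is 30 nt of mm9, 5′ to 3′ on the strand of the gene.
Hist1h2ab (chr13:23843436-23843465, +): acaaaGGCTCTTTTCAGAGCCacccacatc
Hist1h2ac (chr13:23775337-23775366, -): ccaaaGGCTCTTTTCAGAGCCcccactttt
Hist1h2ak (chr13:21845242-21845271, -): ccaaaGGCTCTTTTCAGAGCCacctacaaa
Hist1h2an (chr13:21878638-21878667, -): acaaaGGCTCTTTTCAGAGCTaacacattt
Hist3h2a (chr11:58768669-58768698, +): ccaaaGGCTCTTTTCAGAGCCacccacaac
H2afx (chr9:44143318-44143347, +): acaaaGGCCCTTTTAAGGGCCaccacctcc

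The PASs of the Hist-named genes lay on either side of this element. Hist1h2ab, Hist1h2ac, Hist1h2ak and Hist1h2an, which encode core histone H2A, had all their PASs 4 to 31 nt after the last base of the stem-loop. Of the 2 PASs of Hist3h2a, another H2A gene, the proximal one lay inside the element, 3 nt before its last base, and the distal one 417 nt after it. Hist1h4i, an H4 gene, had its PAS 330 nt beyond the stem-loop, Hist1h1c, the gene of linker histone H1 variant c, had PASs 802 and 941 nt beyond, Hist1h3d (H3) 989 nt and Hist1h1d (H1 variant d) 2213 nt. Hist1h2bc, an H2B gene with an annotated downstream exon, had PASs 7743 to 7910 nt beyond the stem-loop in genome distance. Only Hist1h1e, the gene of H1 variant e, had its PAS inside the coding sequence, 212 nt before its end.

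**Figure D1:**
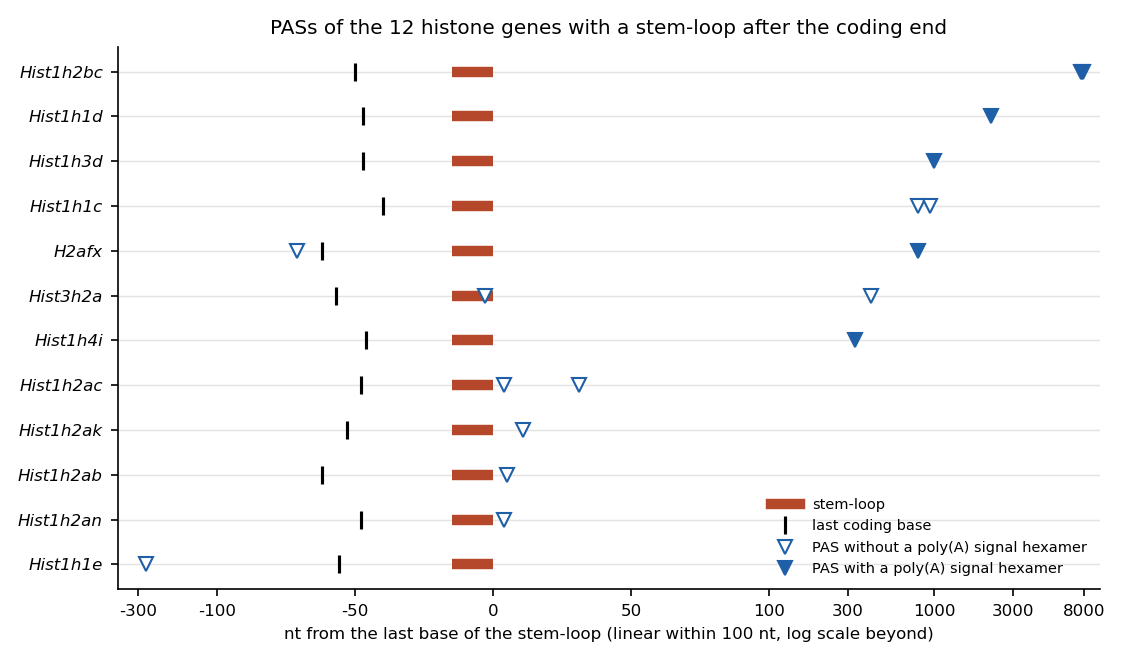
Positions of PASs (triangles) relative to the last base of the stem-loop in the 12 histone genes that carry one after the coding end, with the stem-loop as a bar and the last coding base as a tick; the x axis is in nt, linear within 100 nt and logarithmic beyond. Filled triangles have AATAAA or ATTAAA within 40 nt upstream, and all of them lie beyond the stem-loop.

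A poly(A) signal hexamer, AATAAA or ATTAAA within 40 nt upstream, stood before 9 of the 34 member PASs (26.5%, Wilson 95% interval 14.6% to 43.1%). Among 21531 PASs of all other genes the share was 52.0%, against 3.75% for a window of the same length 201 to 240 nt upstream. None of the 6 PASs of Hist-named genes at the stem-loop had a hexamer, while 4 of the 9 beyond it did. The following ends of 30 nt, each finishing at the PAS and with the hexamer in capitals, are shown as the counterpart of the stem-loop ends: Hist1h4i and Hist1h3d are replication-dependent genes by name that ended at ordinary poly(A) signals, the distal PAS of H2afj is of the replacement class, and Hist1h2bc had its hexamer at the PAS listed for RC4 and RC8.
Hist1h4i (chr13:22132505-22132534, -): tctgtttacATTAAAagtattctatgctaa
Hist1h3d (chr13:23669088-23669117, +): aaaAATAAAtatgcaaaggaggaatgaaaa
Hist1h2bc (chr13:23784328-23784357, +): tatAATAAAtgtcatgtaaagcaaaaaaaa
H2afj distal (chr6:136757286-136757315, +): tccgcagccAATAAAgtcggtgaaaagcga

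The genome itself was A-rich at 7 of the 34 member PASs (20.6%, against 12.1% of all other PASs), counting a run of 8 A from 15 nt before to 20 nt after the site, or 6 consecutive A, or 7 A among 10 nt, downstream. They were the distal PAS of H1f0, the proximal PAS of H2afy, the PAS of H3f3a-ps1, the PAS of Hist1h1c nearer to the stem-loop, the Hist1h2ac PAS listed for AS and RC4, the proximal Hist1h2bc PAS listed for AS and the Hist1h2bc PAS printed above. Whether priming on such tracts gave part of these reads was not tested.

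Levels are given as RPM, the reads of a gene scaled to a total of 1000000 reads on listed genes, and are not divided by length, because the reads come from transcript ends. The libraries held 22441452 to 22996421 reads on listed genes. The NT values of a member differed by at most 0.622% between the 3 tables, and NT is given from the first table that lists the gene. Of 10 fibroblast markers 9 were listed, with summed levels of 14554 RPM (NT), 15170 (AS), 11638 (RC4) and 8813 (RC8), and no epithelial, leukocyte, endothelial, testis or oocyte marker of the lists checked was listed. With 1 library per condition there is no replicate error and no test. A gene was called higher or lower where its RPM differed at least 1.5-fold from NT, and the intervals given are exact 95% counting intervals, which hold no spread between cultures. In these bulk samples, fewer cells in S phase, less histone mRNA per cell and a smaller polyadenylated share of it cannot be told apart. Histone mRNA without a poly(A) tail is not counted, so the Hist-named values are not the total mRNA of these genes. The median gene stood at a log2 change of -0.30 in RC4, against -0.04 in AS and 0.01 in RC8, so that the RC4 values below are relative to a table in which most genes were lower.

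Summed over the genes listed in all tables, the classes stood furthest apart in RC4, and both were below NT in RC8. The 9 Hist-named genes held 185 RPM (NT), 227 (AS), 185 (RC4) and 175 (RC8). The 10 replacement genes held 2516 RPM (NT), 2347 (AS), 1527 (RC4) and 1938 (RC8). Relative to NT, the Hist-named sum was thus 1.22-fold in AS (1.18 to 1.28), 1.00-fold in RC4 (0.955 to 1.04) and 0.946-fold in RC8 (0.906 to 0.988). The replacement sum was 0.933-fold in AS (0.922 to 0.944), 0.606-fold in RC4 (0.597 to 0.614) and 0.771-fold in RC8 (0.761 to 0.780). The higher Hist-named sum in AS lay in Hist1h1c, which went from 36.8 RPM in NT to 77.9 in AS. The steady Hist-named sum in RC4 was made of genes that moved in opposite directions. It leaves out Hist1h3d and Hist1h4i, which were lower in RC4, each with an empty count column there. Over all 11 Hist-named genes listed for RC4, the sum was 201 RPM in NT and 190 in RC4. In the replacement sum, H3f3b alone held 1237 RPM in NT and 722 in RC4. The median gene of each class gave the reverse order in RC4, with log2 changes of -0.70 (Hist-named) and -0.38 (replacement).

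In AS, 2 of 11 Hist-named genes were called higher, against 1.88% of all 10452 genes, and 0 lower, against 11.4%. Of the 10 replacement genes, 0 were called higher and 1 lower. In RC4, 4 of 11 Hist-named genes were called higher (8.04% of all genes) and 6 lower (31.8%), which left Hist3h2a as the single gene not called. Of the replacement genes, 0 were called higher and 4 lower. In RC8, 3 of 10 Hist-named genes were higher (11.3% of all genes) and 1 lower (11.9%), and 0 replacement genes were higher and 4 lower. The Hist-named calls rest largely on few reads. Where both libraries had to hold 200 reads or more, those called higher fell to 1 for AS, 1 for RC4 and 0 for RC8. Those called lower fell to 2 for RC4 and 0 for RC8. Hist1h1e, called higher in both recovery libraries, had an empty count column in NT. Relative to the median gene, Hist1h2ab and Hist1h2an were not called lower in RC4. Over AS, RC4 and RC8, the median log2 changes were 0.04, -0.70 and -0.29 for the Hist-named genes and 0.02, -0.38 and -0.27 for the replacement genes.

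**Figure D2:**
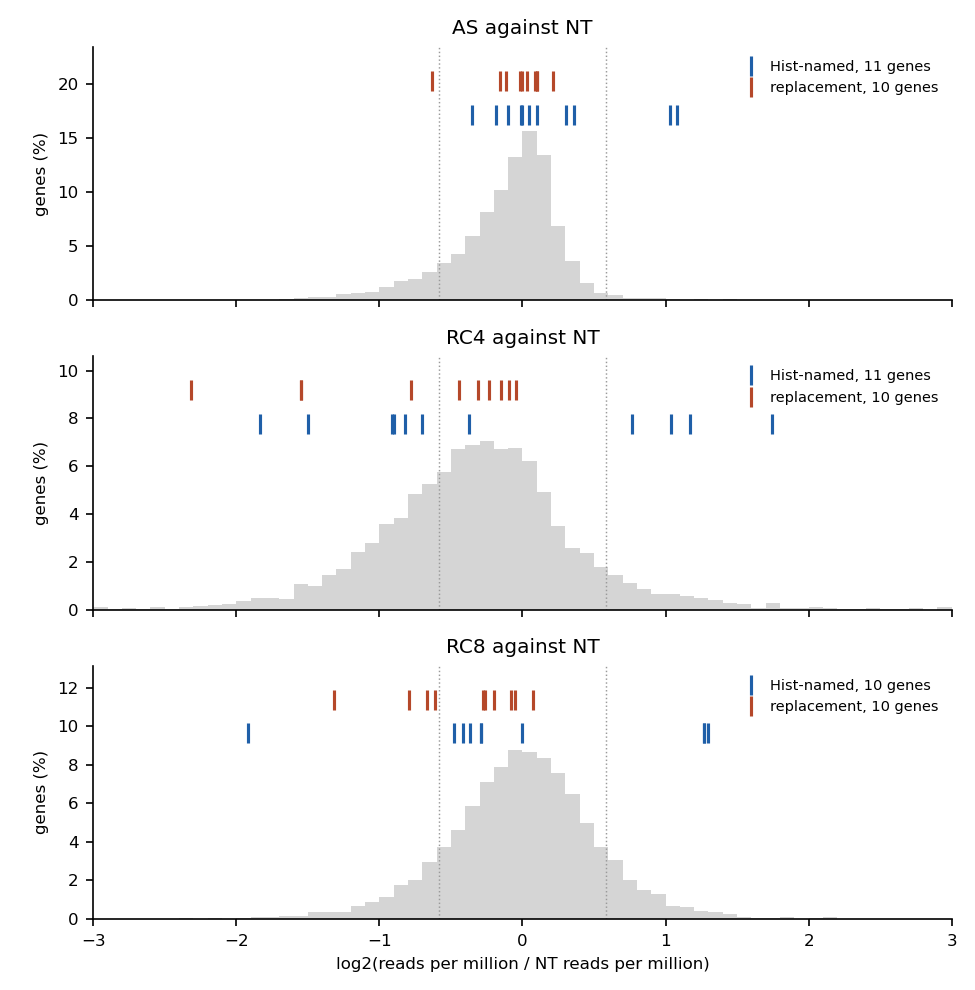
Distribution of the log2 change in RPM over all listed genes (grey bars, percent of genes per bin of 0.1) with the histone genes as ticks, for AS, RC4 and RC8 against NT; dotted lines mark 1.5-fold and values beyond 3 are drawn in the outermost bin. In RC4 the Hist-named ticks spread to both sides, from -1.83 to 1.75, and all replacement ticks lie below 0.

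Hist1h2bc had the largest ratio to NT of all members, in RC4. It had 5.49 RPM (NT), 11.2 (AS), 18.5 (RC4) and 13.3 (RC8), so that every treated library was above NT and RC4 the highest. The ratios to NT were 2.05 (1.64 to 2.56), 3.36 (2.74 to 4.14) and 2.41 (1.95 to 3.0). In RC4, 99.2% of all genes had a lower change. The listed PASs of this gene changed between tables, with a pair of PASs 167 nt apart in the table of AS and a single other PAS between them in those of RC4 and RC8. The proximal one of AS and that of RC4 and RC8 lie in the annotated downstream exon and next to A-rich genome sequence, and the distal one of AS lies outside the annotated gene.

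The linker histone gene Hist1h1c had its highest level at the end of the arsenite treatment. Its levels were 36.8 RPM (NT), 77.9 (AS), 62.8 (RC4) and 36.7 (RC8). AS was thus the highest library and RC8 stood at the NT level, with ratios of 2.12 (1.95 to 2.30), 1.70 (1.56 to 1.86) and 0.997 (0.905 to 1.099). Nearly all its reads were assigned to the PAS 802 nt beyond the stem-loop, one of the A-rich sites, whose share was 92.6% (NT), 95.7% (AS), 91.9% (RC4) and 95.1% (RC8). In AS, 99.5% of all genes had a lower change than Hist1h1c and 99.4% a lower change than Hist1h2bc. Hist1h1d, the other H1 gene with a distant PAS, was listed for AS only, with 4.96 RPM in NT and 6.37 in AS.

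Hist1h2al, an H2A gene outside the main chromosome 13 cluster with no stem-loop by this search, had 6.38 RPM (NT), 6.37 (AS), 13.1 (RC4) and 15.7 (RC8). It was level in AS and 2.06-fold (1.68 to 2.53) and 2.45-fold (2.02 to 2.999) above NT during recovery. Of the 50-mers in the 300 nt before its PAS, 78.9% occur elsewhere in the genome, and the mapping allowed reads with up to 20 places, so that its reads may belong in part to other copies.

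Hist1h1e was also called higher in RC4 and RC8, but on incomplete counts. It had 2.35 RPM (NT), 2.90 (AS), 5.29 (RC4) and 5.65 (RC8). Each library has 2 count columns, and for Hist1h1e one of them was 0 in NT and in AS while the other held 53 and 65 reads. Over all genes and libraries, the column beside an empty one held 50 to 82 reads. An empty column may thus stand for fewer than 50 reads, which was not tested, and its partner's count may be too high a replacement. If the empty column is replaced by its partner, the ratios of 2.25 and 2.41 become 1.12 and 1.204, and the gene is no longer called. The same kind of empty column lowered Hist1h3d in RC4 and RC8 and Hist1h4i in RC4. Hist1h3d had 8.57 RPM in NT, 2.40 in RC4 and 2.26 in RC8, or 0.280-fold and 0.265-fold of NT, and 0.561-fold and 0.529-fold with the column replaced, which is still called. Hist1h4i had 7.13 RPM in NT, 7.35 in AS and 2.53 in RC4, and its ratio in RC4 of 0.355 becomes 0.709 with the column replaced, which is not called. With a lower count in the empty column than in its partner, Hist1h4i can still be called in RC4, and Hist1h1e in RC4 and RC8. These calls are therefore not settled. Of the 50-mers before the PAS of Hist1h1e, 53.0% recur in the genome, so that its reads may belong in part to other copies.

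The 4 H2A genes with PASs only at the stem-loop moved alike. Hist1h2ab had 45.7 RPM (NT), 40.3 (AS), 28.3 (RC4) and 37.5 (RC8). Hist1h2ak had 25.9, 25.8, 13.8 and 20.1 RPM in the same order. Hist1h2an had 12.2, 11.4, 6.95 and 9.18 RPM, and Hist1h2ac 10.7, 8.38, 5.77 and 8.78. In each of them RC4 was the lowest library, RC8 lay between RC4 and NT, and all 4 were called lower in RC4 and in no other library. The log2 changes in RC4 ran from -0.91 for Hist1h2ak to -0.70 for Hist1h2ab. Relative to the median gene of RC4 they were -0.61 and -0.40, and Hist1h2ab and Hist1h2an were then no longer called.

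These 4 genes are not independent measurements. Of the 50-mers before its PASs, Hist1h2ab shared 71.7% with other histone genes of the tables, Hist1h2ac 68.3%, Hist1h2an 57.8% and Hist1h2ak 39.8%, and single 50-mers occurred at up to 19 places of the genome. How the reads of these near-identical ends were divided between the genes is not known, and the 4 values are not separate evidence. In contrast, Hist1h1c, Hist1h1d, Hist1h2bc, Hist1h3d and Hist1h4i had no recurring 50-mer before any PAS.

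Hist3h2a, which had one PAS in the stem-loop and one beyond it, allowed both ends to be followed in 1 gene. In total it had 39.5 RPM (NT), 42.4 (AS), 30.6 (RC4) and 28.4 (RC8), with no call. The proximal PAS took 60.5% of the reads in NT (57.3% to 63.7%), 54.1% in AS, 48.3% in RC4 (44.6% to 52.0%) and 56.6% in RC8. The RPM at this PAS were 23.9, 22.9, 14.8 and 16.05, and those at the distal PAS 15.6, 19.5, 15.8 and 12.3. In RC4 the stem-loop end was therefore at 0.617 of its NT level and the distal end at 1.01 of it. The relative expression difference, log2 of distal over proximal in RC4 minus the same in NT, was 0.71 with a counting error of 0.15. The gene overlaps Trim17 on the same strand in the annotation, so reads at its ends cannot be assigned to it with certainty. Of the 50-mers before the proximal PAS, 16.7% recur in the genome, and 0% of those before the distal one. Hist3h2a shares 50-mers with Hist1h2ab, Hist1h2ac, Hist1h2ak and Hist1h2an, so reads at its proximal PAS may belong in part to other copies.

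**Figure D3:**
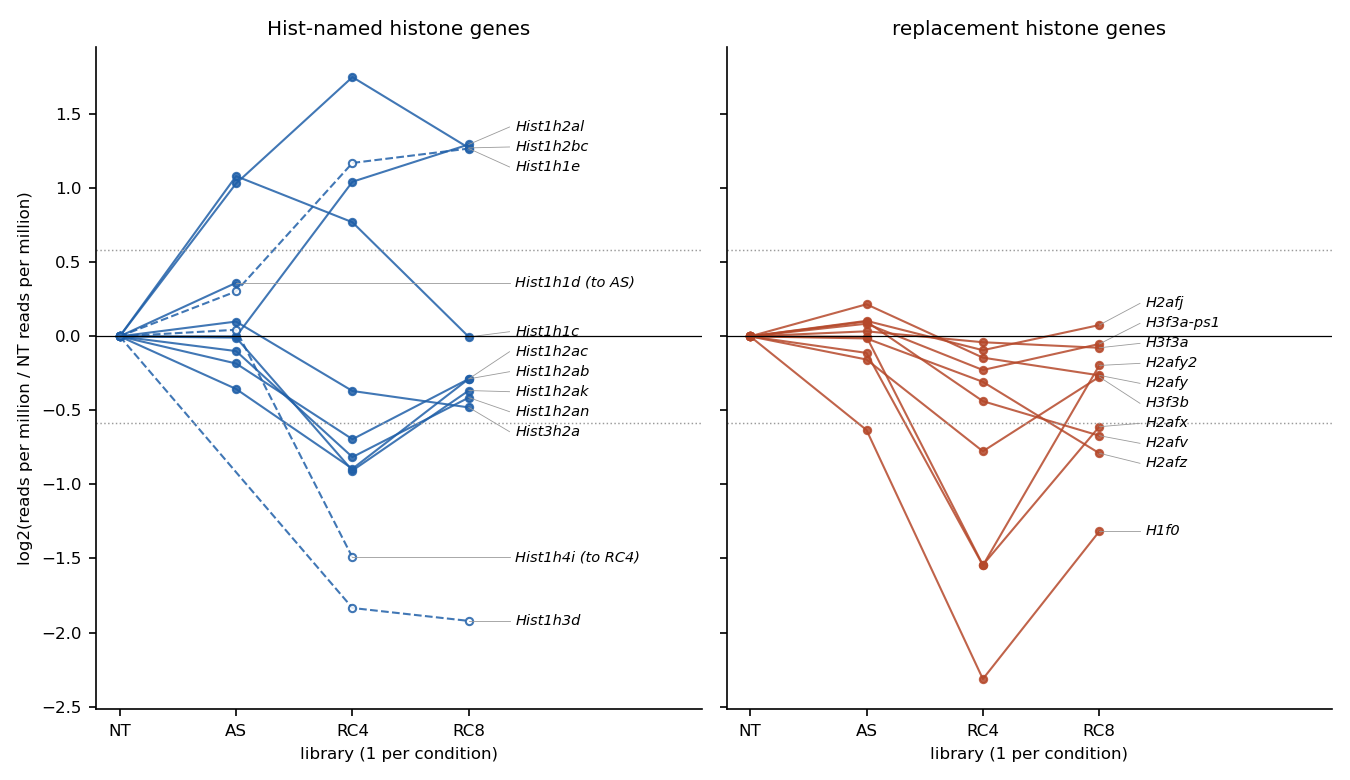
Log2 ratio of RPM to NT for each histone gene in the 4 libraries, Hist-named genes on the left and replacement genes on the right; dotted lines mark 1.5-fold, and dashed lines with open points mark genes with an empty count column in at least 1 library (Hist1h3d was not listed for AS, Hist1h4i not for RC8, Hist1h1d only for AS). Hist-named genes fan out to both sides in RC4, whereas H1f0, H2afx and H2afy2 dip to -2.32, -1.55 and -1.55.

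Among replacement genes, H1f0 had the lowest ratio to NT in every comparison. It is the gene of linker histone H1 variant 0, which accumulates in cells that stop dividing or differentiate. It had 266 RPM (NT), 171 (AS), 53.5 (RC4) and 107 (RC8). It was the single replacement gene called in AS and was called in every comparison, at 0.645 (0.619 to 0.672), 0.201 (0.189 to 0.213) and 0.401 (0.383 to 0.421) of NT. In RC4, 0.43% of all genes had a lower change.

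Its reads also moved from the distal to the proximal PAS, 1040 nt apart. The proximal PAS took 19.9% of reads in NT (18.9% to 20.9%), 29.3% in AS, 36.4% in RC4 (33.8% to 39.1%) and 26.6% in RC8. At the distal PAS the level was 213 RPM (NT), 121 (AS), 34.0 (RC4) and 78.3 (RC8), and at the proximal PAS 52.9, 50.2, 19.5 and 28.4. In AS the lower total thus lay at the distal end, which was at 0.569 of NT while the proximal end was at 0.950. In RC4 both ends were lower, the distal at 0.159 of NT and the proximal at 0.367. Both PASs lie outside the GENCODE vM1 model of H1f0, whose annotated end is upstream of them, and the distal one is an A-rich site. The proximal end follows, with its hexamer in capitals.
H1f0 proximal (chr15:78859837-78859866, +): tATTAAAgaggacagagtttggatccctca

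H2afx encodes the H2A variant that is phosphorylated around DNA breaks. It had 191 RPM (NT), 191 (AS), 65.7 (RC4) and 125 (RC8), level between NT and AS and 0.342-fold (0.323 to 0.363) and 0.655-fold (0.625 to 0.687) of NT during recovery. Its proximal PAS lies 9 nt before the last coding base and 71 nt before the end of the stem-loop, and its distal PAS 793 nt beyond the stem-loop, directly after a hexamer. The proximal share was 53.6% (NT) (52.1% to 55.1%), 48.7% (AS), 74.2% (RC4) (71.9% to 76.3%) and 61.5% (RC8). At the distal PAS the level was 88.9 RPM (NT), 98.04 (AS), 16.9 (RC4) and 48.3 (RC8), and at the proximal PAS 103, 93.1, 48.7 and 77.2. The distal end in RC4 was at 0.190 of NT and the proximal one at 0.474. This was the largest shift of PAS usage among the histone genes, 20.6 percentage points. In Hist3h2a the proximal PAS lost share in RC4 instead. That PAS lies inside the stem-loop and the proximal PAS of H2afx before it. Whether the position bears on the direction of the shift was not tested. Of the 50-mers before the proximal PAS of H2afx, 32.7% recur in the genome, and those before the distal one do not. The distal end follows, with its hexamer in capitals.
H2afx distal (chr9:44144102-44144131, +): ggggagatttaatgggctaattttATTAAA

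Across all member genes with more than 1 PAS, a PAS changed by at least 10 percentage points in 0 of 8 genes in AS, where 15.3% of the genes with more than 1 PAS were called. In RC4 it did so in 4 of 7 genes (29.1% of all such genes), which were H1f0, H2afx, H3f3b and Hist3h2a. In RC8 it did so in 2 of 7 (27.0% of all such genes), H2afj and H3f3b. Of the 4 genes called in RC4, H1f0, H2afx and H3f3b gained share at a proximal PAS and Hist3h2a at the distal one. Hist1h1c and H2afy, at most 5.0 points apart from NT in any library, and Hist1h2bc, with 2.8 points in AS, made up the rest.

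**Figure D4:**
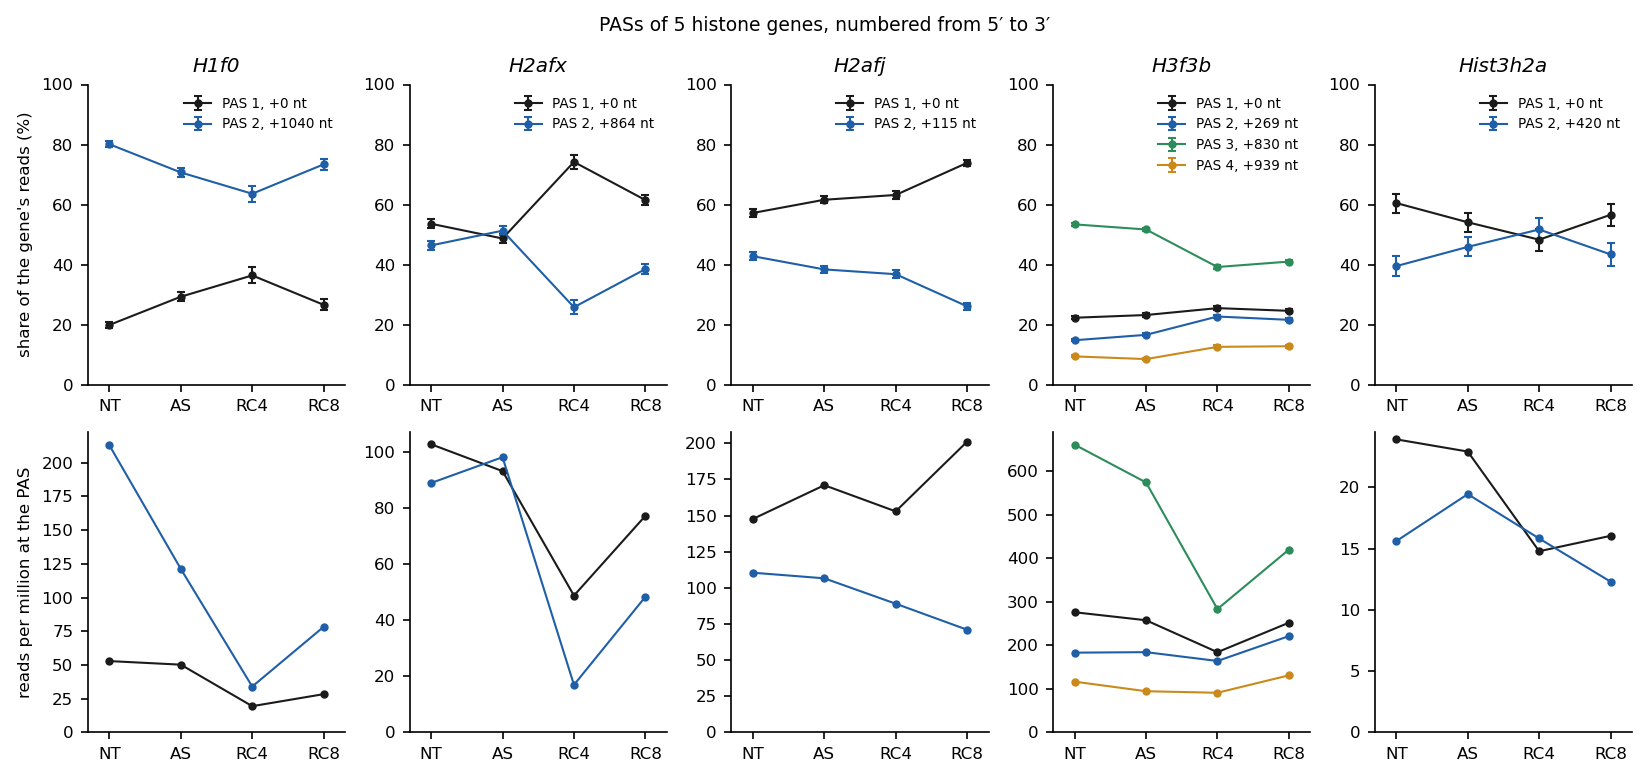
PAS usage of the 5 histone genes with a called PAS: share of the reads of the gene in percent (top, bars are 95% Wilson intervals) and RPM at each PAS (bottom, from 0) in NT, AS, RC4 and RC8, with PASs numbered from 5′ to 3′ and their distance from the first in nt. The lines of H2afx part in RC4, at 74.2% and 25.8%, and those of H2afj in RC8, at 73.9% and 26.1%.

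H3f3b, one of the genes of the H3 replacement variant, took the most reads of all members. It had 1237 RPM (NT), 1110 (AS), 722 (RC4) and 1023 (RC8). It was called lower in RC4 alone, at 0.583 of NT (0.571 to 0.594), but relative to the median gene its log2 change of -0.48 did not reach 1.5-fold. The PAS 1038 nt after the coding end took most reads in every library, with 53.4% (NT), 51.7% (AS), 39.2% (RC4) and 41.0% (RC8). Its level was 661, 574, 283 and 420 RPM in that order. The PAS 477 nt after the coding end had shares of 14.8%, 16.6%, 22.7% and 21.6%, and levels of 183, 184, 164 and 221 RPM. The decrease of H3f3b in RC4 thus lay mostly at the PAS 1038 nt after the coding end, at 0.430 of NT. The PAS 477 nt after it was at 0.894, the one 208 nt after it at 0.666 and the one 1147 nt after it at 0.751. The last 2 also gained share in RC4, from 22.3% to 25.5% and from 9.77% to 12.6%. Of the 50-mers, 88.0% recur in the genome at the PAS 477 nt after the coding end and 58.6% at the one 208 nt after it. At the PASs 1038 and 1147 nt after it, 0% recur.

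H3f3a, the second gene of the same protein, stayed level, with 86.5 RPM (NT), 88.5 (AS), 84.1 (RC4) and 82.0 (RC8). Its log2 change in RPM in RC4, -0.04, was the smallest of all histone genes, and that of H3f3b in the same comparison was -0.78. Relative to the median gene of RC4, H3f3a stood at 0.26 and H3f3b at -0.48, and H2afz, at -0.01, had the smallest change. The pseudogene H3f3a-ps1 had 27.8, 29.5, 23.7 and 26.8 RPM. It shared 13.5% of its 50-mers with H3f3a, and 96.8% of its 50-mers and 77.7% of those of H3f3a recur in the genome, so that reads of the 2 cannot be told apart with certainty.

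The H2A.Z genes had their lowest values in RC8, with 1 library per time point. H2afz had 61.0 RPM (NT), 60.4 (AS), 49.3 (RC4) and 35.3 (RC8), and H2afv 284, 304, 210 and 178 RPM. Both were called lower in RC8 alone, at 0.579 (0.530 to 0.631) and 0.631 (0.606 to 0.656) of NT. From RC4 to RC8 they changed by less than 1.5-fold, with ratios of 0.716 for H2afz and 0.851 for H2afv. In contrast, H1f0, H2afx, H2afy2 and H3f3b were lowest in RC4 and higher again in RC8. Of the 50-mers before the PAS of H2afz, 78.9% recur in the genome, so that its reads may belong in part to other copies. For H2afv the share was 0%.

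The macroH2A genes encode H2A variants with a large additional domain that are known from inactive chromatin. H2afy2 had 31.4 RPM (NT), 29.1 (AS), 10.7 (RC4) and 27.4 (RC8), so that RC4 alone stood apart, at 0.341 of NT (0.294 to 0.395). H2afy had 73.0, 84.8, 66.1 and 60.8 RPM and was not called in any library. The PAS of H2afy2 overlaps Aifm2 on the opposite strand, and the strand setting of the counting is not given in the sources used here.

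H2afj, the gene of the H2A.J variant that is known from senescent fibroblasts, kept its total and changed its ends. It had 258 RPM (NT), 278 (AS), 242 (RC4) and 272 (RC8), and was called in none. The proximal of its 2 PASs, which lie 115 nt apart, is 50 nt before the end of the coding sequence and the distal one 65 nt after it. The proximal share was 57.2% (NT) (55.9% to 58.5%), 61.6% (AS), 63.2% (RC4) and 73.9% (RC8) (72.8% to 74.97%). The proximal level was 148, 171, 153 and 201 RPM, and the distal level 111, 107, 89.0 and 71.0. In RC8 the proximal end was at 1.36 of NT and the distal end at 0.644. How well sites this close are separated by reads that start upstream of both was not tested.

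From RC4 to RC8, levels were at least 1.5-fold higher in H2afy2 (2.55-fold), H1f0 (1.995-fold), H2afx (1.91-fold) and Hist1h2ac (1.52-fold), and were lower in Hist1h1c, at 0.585-fold. These are 4 and 1 of 20 members, against 30.6% and 6.59% of the 9972 genes in both tables. All other members listed in both tables lay within 1.5-fold. The median gene was higher in RC8 than in RC4 by 0.26 on the log2 scale. Relative to it, H2afy2, H1f0 and H2afx were still at least 1.5-fold higher, at log2 values of 1.09, 0.73 and 0.67, but Hist1h2ac, at 0.35, was not, and H2afz and Hist1h2bc, both at -0.74, were lower.

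The genes that act on histone mRNA and histones were taken from lists by function. Their counts of lower genes are to be read against the 11.4% (AS), 31.8% (RC4) and 11.9% (RC8) of all genes called lower, and those of higher genes against 1.88%, 8.04% and 11.3%. The highest and lowest changes are those among genes with at least 200 reads in both libraries. Of 24 genes of histone transcription and 3′ processing, 21 were listed in each table. In AS 1 was higher and 2 lower, in RC4 0 higher and 11 lower, and in RC8 2 higher and 2 lower, with median log2 changes of 0.00, -0.61 and -0.14. Only in RC4 was the share called lower above that of all genes. Slbp, which encodes the stem-loop binding protein, had 114 RPM (NT), 118 (AS), 51.7 (RC4) and 123 (RC8). It was thus low in RC4 alone, at 0.451 of NT (0.421 to 0.483), as were the stem-loop H2A genes, and in RC8 it was back above NT while they were not. Npat, a coactivator of histone gene transcription, had 20.4, 14.1, 8.95 and 14.7 RPM, and Casp8ap2, a further factor of histone gene expression, 17.3, 8.65, 9.44 and 13.7. Lsm10, a subunit of the U7 small nuclear ribonucleoprotein that directs cleavage after the stem-loop, had 31.3, 37.1, 19.3 and 44.4 RPM, and Lsm11, its partner, 10.7, 17.0, 10.3 and 20.5. With at least 200 reads, Lsm11 had the highest change of the list in every comparison, with log2 values of 0.67, -0.05 and 0.94, and the lowest were Cpsf2 in AS (-1.15), Npat in RC4 (-1.19) and Snrpf in RC8 (-1.15).

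Of the 9 histone mRNA decay genes, 3 were lower in AS and 0 higher, and 3 of 8 listed were lower in RC4 and 0 higher, while RC8 gave 0 calls; the share lower was above that of all genes in AS and near it in RC4. The uridylyltransferase gene Zcchc11 had the lowest change each time, with 30.02 RPM (NT), 16.4 (AS), 13.1 (RC4) and 20.5 (RC8). With at least 200 reads, the highest were Lsm1 in AS (log2 0.04), Zcchc6 in RC4 (0.03) and Dcp2 in RC8 (0.40). Of 28 histone chaperone and deposition genes, 25 were listed, of which 5, 9 and 3 were lower in AS, RC4 and RC8 and 0 higher, shares near those of all genes in RC4 and RC8. With at least 200 reads, the lowest were Atrx in AS (-1.10), which acts with Daxx in the deposition of the H3 replacement variant, Chaf1a in RC4 (-1.97), a subunit of the replication-coupled chaperone CAF-1, and Znhit1 in RC8 (-0.86), and the highest were Hat1 in AS (0.21), Ubn1 in RC4 (0.20) and Anp32e in RC8 (0.21).

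The S phase and DNA synthesis list was the most uniform in RC4. Of its 32 genes, all listed, 1 was higher and 1 lower in AS, 1 higher and 25 lower in RC4, and 0 higher and 8 lower in RC8, and the median log2 change was 0.09, -0.89 and -0.02. The share called lower thus stood above the 31.8% of all genes in RC4 and above the 11.9% in RC8. Ccne1, which encodes cyclin E1 of S phase entry, had 85.2 RPM (NT), 93.9 (AS), 13.0 (RC4) and 105 (RC8). Pole was the gene higher in RC4, with 28.6 RPM in NT, 46.2 in AS and 75.4 in RC4. The gene called lower in AS was Ccne2, at a log2 change of -1.02 on fewer than 200 reads. With at least 200 reads, the lowest changes were those of Rfc1 in AS (-0.55), Ccne1 in RC4 (-2.72) and Tk1 in RC8 (-1.56), and the highest Pole in AS (0.69) and RC4 (1.39) and Ung in RC8 (0.46). In RC4 the H2A genes at the stem-loop and most S phase genes, Slbp among them, were thus low in the same library. In that library 31.8% of all genes were called lower, and relative to the median gene Hist1h2ab and Hist1h2an were not called. The 4 listed genes that end only beyond the stem-loop were divided, Hist1h2bc and Hist1h1c being high and Hist1h3d and Hist1h4i low. The call of Hist1h4i depends on the count put in an empty column. The part of S phase in the histone values was not tested.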

How the data were processed

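QuantSeq FWD libraries of NIH3T3 cells (NT, AS, RC4, RC8, 1 each) were analysed. Per the study's methods, the authors trimmed reads with bbmap, mapped them to mm9 with STAR (version 2.5.2a per the submitters' processing notes) and assigned them to PolyA_DB v3 PASs with MAAPER, keeping genes with at least 50 reads and PASs with a proportion of at least 5%. The deposited gene tables hold raw read counts in 2 count columns per library, which were summed, and the deposited PAS tables hold the fraction of the reads of a gene at each PAS. The tables name conditions 1 and 2, read as NT and the treated library from the order in the study's formula. Columns of p-values, RED and RLD are the authors' own comparisons and were not used. QuantSeq REV libraries were not analysed here.

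RPM are counts over the table total. Ratios carry exact conditional binomial (Clopper-Pearson) 95% intervals and PAS shares Wilson intervals, both for counting error only. The reads carry no molecular identifiers and may repeat a molecule. With 1 library per condition no test was run; calls are 1.5-fold for RPM and 10 percentage points for PASs. Chromosome lengths of the reference matched mm9. The scripts were tested on simulated data. Python 3.11.15, numpy 2.4.6, pandas 2.3.3, scipy 1.17.1, pysam 0.24.0 and, for TMM factors, edgeR 4.0.16 in R 4.3.3 were used. The members and lists were chosen with earlier results of these data known. Levels in each library are given for members above 20 RPM in NT or called at least once, PAS shares for members with a called PAS or a PAS outside the 3′-most exon, and of the other lists Slbp, Npat, Casp8ap2, Lsm10, Lsm11 and the extremes among genes that reached 200 reads in both libraries; Hist1h1d was added after its values were seen. The stem-loop search after the coding end and the grouping by PAS position were chosen after seeing the data. Alternatives were other scalings, filters, thresholds, motifs and the treatment of empty count columns.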

Additional observations from a re-analysis of the deposited data

How the results depend on the processing

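No paired analysis was possible because each condition has 1 library and the labels carry no replicate numbers. In RC4, the median log2 change of the Hist-named genes was -0.40 with the median gene set to 0, -0.41 with TMM factors, -0.35 with the first count column only and -0.50 with an empty column replaced by its partner. That of the replacement genes in RC4 was -0.0722 with the median gene set to 0, -0.0857 with TMM factors and -0.99 without genes of which over 50% of the 50-mers recur, a setting which gave -0.44 in RC8. It also gave 2 Hist-named genes higher and 3 lower in RC4 and 1 higher in RC8. With at least 200 reads in each library, Hist-named genes called higher were 1 (AS), 1 (RC4) and 0 (RC8), and called lower 2 in RC4 and 0 in RC8; the genes with few reads carry most of these calls. The first count column gave 1 Hist-named gene lower in AS and turned Hist1h1e in RC4 to a log2 change of -0.0221. A 2-fold threshold left 2 Hist-named genes lower in RC4, and 0 replacement genes lower in AS and 1 in RC8. At 20 percentage points, 1 gene had a called PAS in RC4 and 0 in RC8. AATAAA alone stood before 11.8% of the member PASs. The settings on empty columns, recurring 50-mers and H3f3a-ps1 were chosen after seeing the data. The other 155 values for these summaries stayed within their counting interval or within 1.5 times. Leaving out a replicate could not be done.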
